A study of Rattus norvegicus with 18 samples.

Results

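The genes described are 8 cathepsins, Ctsb, Ctsc, Ctsd, Ctsh, Ctsk, Ctsl, Ctss and Ctsz, and legumain (Lgmn), a set of lysosomal proteases. They were chosen by their annotated symbol, which 11 of the 33849 gene probes on the array carry. Ctsc and Ctsd have 2 probes each, the other 7 genes have 1, and all 11 probes were tested. For Ctsc and Ctsd the probe with the higher mean log2 value stands for the gene. The Ctsl probe was designed on an expressed sequence tag that the platform annotation assigns to Ctsl, and the Ctsz and Lgmn probes carry the older names cathepsin Y and protease, cysteine, 1.

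Hippocampal RNA of male adult Wistar rats was measured on 1-colour oligonucleotide arrays (CodeLink Rat Whole Genome), and each array was taken as 1 rat. Pilocarpine, a muscarinic cholinergic agonist, was given once after scopolamine methylnitrate, which limits its effects outside the brain, and the rats then developed sustained seizures (status epilepticus, SE) that were stopped with diazepam. The D3 group (n = 5) was killed on day 3 and the D7 group (n = 5) on day 7 from SE, the Chronic group (n = 5) soon after its first spontaneous seizure, and 3 saline-treated rats, 1 for each time, form the Control group. All 3 pilocarpine groups were compared with these same 3 Control arrays, so the comparisons with Control are not independent of each other. By the study's methods the controls had only saline, so effects of SE, pilocarpine, scopolamine methylnitrate and diazepam cannot be told apart here. Values are the normalized intensity of a spot, with the median spot of an array near 1, and the number of arrays limits the precision. A whole hippocampus was measured, and fewer or more cells of a type cannot be told apart from less or more RNA per cell.

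Cathepsins are proteases that work mostly in the acid interior of lysosomes and endosomes, where they break down proteins taken up by the cell or delivered by autophagy. Most are cysteine proteases, which papain exemplifies, whereas cathepsin D is an aspartic protease. Legumain, also a cysteine protease, cuts after asparagine and processes several cathepsins to their mature forms. All are made as inactive precursors. In the brain, neurons and glia contain lysosomes, and cathepsin S in particular is known as a protease of microglia and other antigen-presenting cells, where it trims the invariant chain that occupies MHC class II molecules.

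The 250 bases before the start of 2 of the genes are shown because Ctsd and Ctss hold different ones of the letters searched. The sequences are those of RefSeq for build GRCr8, whose promoter table holds 8 of the 9 genes and not Ctsb, and the array values do not rest on that build. The E-box core CACGTG, which is also the centre of the element TCACGTGA bound by TFEB and related factors of lysosomal genes, was searched, as were GAGGAAGT and AGAGGAAG, which overlap each other and are of the type bound by PU.1, a factor of myeloid cells. Both strands were searched. Capitals mark the matches, and each sequence runs 5′ to 3′ and ends at the base before the start.
Ctsd, chr1:206968822-206969071, minus strand: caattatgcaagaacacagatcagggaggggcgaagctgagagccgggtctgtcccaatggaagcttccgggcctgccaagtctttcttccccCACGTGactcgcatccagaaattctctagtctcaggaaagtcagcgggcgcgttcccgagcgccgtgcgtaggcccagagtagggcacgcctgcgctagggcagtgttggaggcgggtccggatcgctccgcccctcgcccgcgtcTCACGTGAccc
Ctss, chr2:185775146-185775395, plus strand: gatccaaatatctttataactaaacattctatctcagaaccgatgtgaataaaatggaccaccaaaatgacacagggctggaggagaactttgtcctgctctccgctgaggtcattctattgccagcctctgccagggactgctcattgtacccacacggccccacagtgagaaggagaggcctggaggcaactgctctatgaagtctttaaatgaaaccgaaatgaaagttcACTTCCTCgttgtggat

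In Ctsd, TCACGTGA began 11 bases before the start and a second CACGTG began 157 bases before it. Among 33469 promoters of the same length, 5.59% held CACGTG and 0.657% held TCACGTGA, and of the 8 genes searched Ctsd alone held them. In Ctss, ACTTCCTC, the complement of GAGGAAGT, began 17 bases before the start. The PU.1-type letters were held by 4.89% of all promoters and by Ctsc and Ctss here, at 248 bases before the start in Ctsc. A match describes the letters only.

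Before the results, the arrays that stood apart are named. D7 replicate 33 had the lowest median correlation with its own group, 0.9516, against 0.9575 to 0.9688 for the other 17 arrays. Of the 9 genes, 8 were above the D7 group mean on it, and D7 counts that differ without it are given both ways. Spots flagged good made up 66 to 76% of the spots on an array.

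The group mean of each of the 9 genes was above Control at all 3 times, and most of these differences passed the test. At D3, 5 of the 9 genes were called higher than Control, that is at an adjusted p under 0.05 over all 33800 tested probes and a change of at least 2-fold, where 5.09% of 12331 genes were called higher. The D7 group had 6 of 9 called against 3.8% of all genes, and the Chronic group 4 of 9 against 2.87%. Ctsc, Ctsh, Ctsz and Lgmn were called at all 3 times, Ctsd at D3 and D7, and Ctss at D7. Without the demand for 2-fold, 9 of 9 genes were higher at D3 (11.8% of all genes), 8 of 9 at D7, all except Ctsk (8.04%), and 6 of 9 in Chronic, all except Ctsb, Ctsd and Ctsk (6.28%). No gene of the 9 was lower at any time by either rule, where 0.973%, 0.487% and 0.673% of all genes were called lower at D3, D7 and Chronic, and 16.5%, 15.5% and 12.7% were lower at any size. Over the D3, D7 and Chronic groups the median log2 fold change of the 9 genes was 1.06, 1.25 and 0.93, beside -0.10, -0.12 and -0.12 over all genes. Without D7 replicate 33, 5 of 9 genes were called at D7, with Ctsd lost, where 2.7% of all genes were. At any size 6 of 9 were then higher, with Ctsb and Ctsl lost, where 5.87% of all genes were. Against the saline rat of its own time alone, 4, 4 and 0 of the 9 were called at D3, D7 and Chronic, where 3.88%, 1.87% and 0.255% of all genes were called higher.

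**Figure D1:**
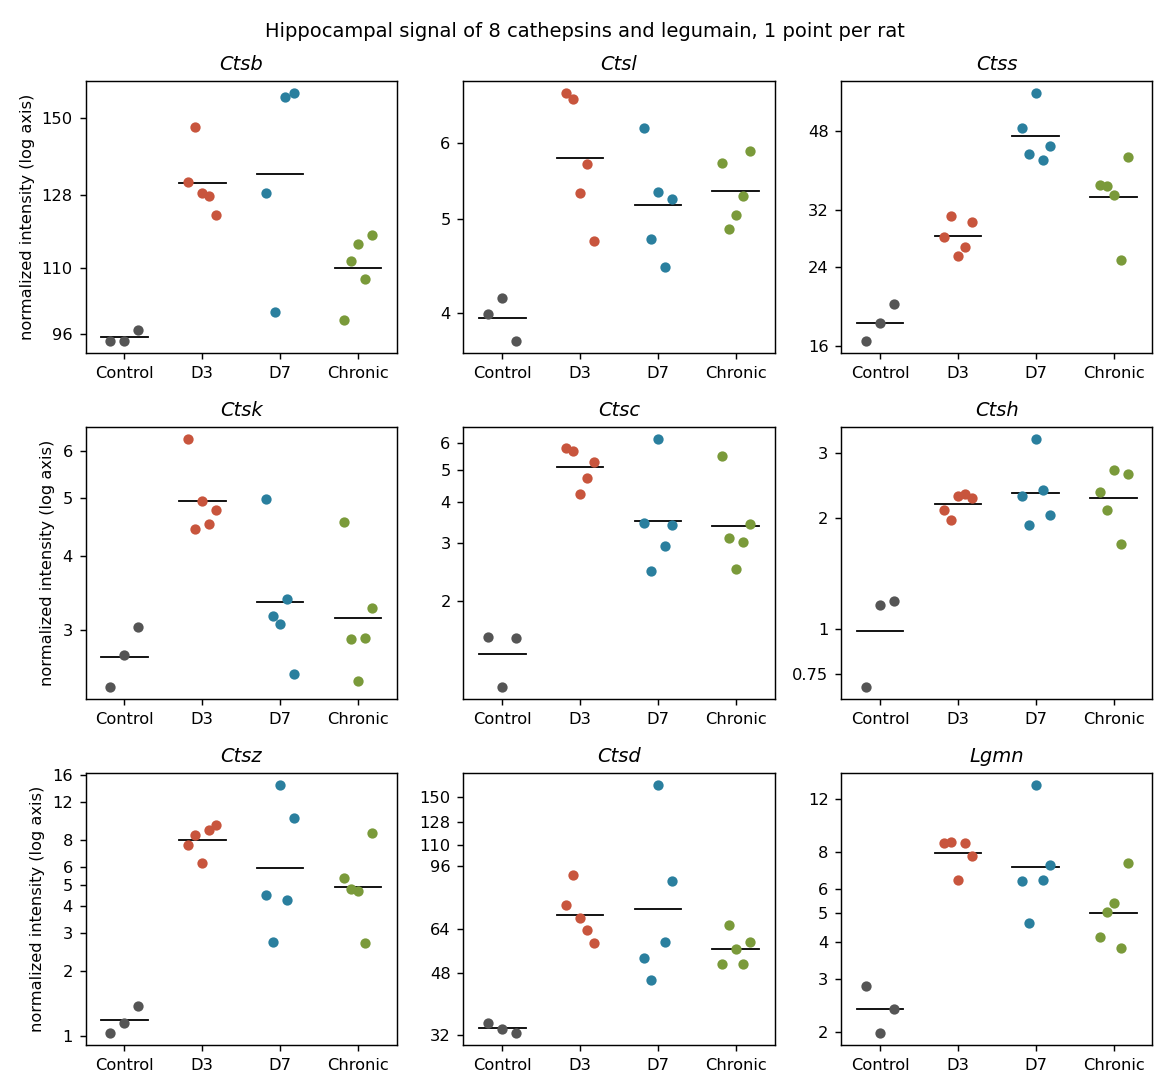
Normalized intensity of each gene by group on a log axis, 1 point per array, with the mean of the log2 values as a black bar; the vertical ranges differ between panels. At D3 every point of each gene lies above its 3 Control points, and Ctsk overlaps Control at D7 and in Chronic. How often all genes separate in this way was not counted, so the gap only describes these points.

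The exopeptidases Ctsz, Ctsc and Ctsh, which remove amino acids or dipeptides from chain ends, were called at all 3 times. Cathepsin Z, a carboxypeptidase, had the largest change of the 9 genes at each time. Its Control values were 1.04, 1.15 and 1.38. At D3 it reached 7.6, 8.46, 6.26, 8.91 and 9.4, a narrow band far above Control. At D7 the 5 rats spread out, with 4.5, 2.72, 14.4, 4.27 and 10.1, and in Chronic they had 5.34, 4.78, 4.66, 2.7 and 8.65. No pilocarpine rat overlapped Control. For the D3, D7 and Chronic rats the log2 fold change of Ctsz was 2.77 ± 0.40, 2.34 ± 0.40 and 2.05 ± 0.40 (standard error of the fit; adjusted p = 0.000112, 0.000997 and 0.00317), or 6.82-, 5.07- and 4.14-fold. The difference between Chronic and D3, -0.72 with a 95% interval of -1.44 to -0.00, had an adjusted p of 0.297.

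Cathepsin C, a dipeptidyl peptidase that activates serine proteases of granulocytes and other blood cells, had Control values of 1.56, 1.1 and 1.54. The D3 rats had 5.81, 5.7, 4.22, 4.71 and 5.28, the D7 rats 3.45, 2.46, 6.18, 2.93 and 3.4, and the Chronic rats 5.51, 3.11, 2.5, 3.02 and 3.43. Every pilocarpine rat was above every Control rat, and 1 rat each at D7 (replicate 33) and in Chronic (replicate 41) had a D3-like value. In the order D3, D7, Chronic the log2 fold change was 1.89 ± 0.25, 1.34 ± 0.25 and 1.29 ± 0.25 (adjusted p = 4.76e-05, 0.00172 and 0.00296). The second Ctsc probe was dim, with all 3 Control spots flagged low, so that only a bound can be given. It was at least 2.49-fold higher at D3, and at least 1.49- and 1.27-fold in the later groups (adjusted p = 0.00176, 0.0302 and 0.076), and its D7 and Chronic values overlapped Control. That D7 call of the dim probe was lost when any of D7 replicates 31, 33 or 35 or Control replicates 26 or 36 was left out, at adjusted p values of 0.0541 to 0.212.

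Cathepsin H, an aminopeptidase, had fold changes that lay within 0.10 of each other on the log2 scale over the 3 times. Control rats had 0.694, 1.16 and 1.19, and the 15 pilocarpine rats ranged from 1.7 to 3.28. The medians of the D3, D7 and Chronic groups were 2.27, 2.3 and 2.36, and the log2 fold changes were 1.15 ± 0.19, 1.25 ± 0.19 and 1.20 ± 0.19 (adjusted p = 0.000384, 0.000418 and 0.000883). The difference between D7 and D3 was 0.10 with a 95% interval of -0.25 to 0.44. Control replicate 26, the lowest of the 18 arrays for Ctsh, carried part of the fold. Without it the changes were 0.90, 0.99 and 0.95, under 2-fold at all 3 times, with adjusted p values of 0.00527, 0.00518 and 0.0106.

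Legumain, the asparaginyl endopeptidase, had Control values of 2.84, 1.99 and 2.38. It was 8.6, 8.61, 6.44, 8.57 and 7.77 at D3, then 6.42, 4.61, 13.4, 6.47 and 7.21 at D7, and 4.14, 5.03, 5.4, 3.83 and 7.33 in Chronic. None of the 15 values fell into the Control range, and 4 of 5 Chronic rats lay below all D3 rats. Over the 3 successive groups the log2 fold change was 1.74 ± 0.25, 1.59 ± 0.25 and 1.08 ± 0.25 (adjusted p = 0.000105, 0.000504 and 0.00844). The Chronic to D3 difference of -0.67 ± 0.21 had an adjusted p of 0.107. The Chronic call was close to the 2-fold limit, with 0.94 without Chronic replicate 45 and 0.95 (adjusted p = 0.0551) without Control replicate 36.

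Cathepsin D, the aspartic protease that is abundant in lysosomes of most cells, was measured by 2 probes. The brighter one read 34.6, 33.3 and 32.6 in Control, a narrow band. It read 74.4, 90.3, 68.5, 63.2 and 58.1 at D3, then 53, 45.8, 162.3, 58.7 and 87.3 at D7. The Chronic rats read 50.8, 65.3, 56.1, 50.9 and 58.8. All 15 pilocarpine rats were above Control, and D7 replicate 33 was far above the rest of its group. For D3, D7 and Chronic rats the log2 fold change was 1.06 ± 0.27, 1.12 ± 0.27 and 0.74 ± 0.27 (adjusted p = 0.00824, 0.00952 and 0.0703). The dimmer probe gave 1.35 ± 0.30, 1.25 ± 0.30 and 1.16 ± 0.30 (adjusted p = 0.00327, 0.00844 and 0.0146), so that the probes differ on the Chronic call, which the dimmer one lost without Control replicate 36 (adjusted p = 0.0617). Without D7 replicate 33 neither probe reached 2-fold at D7, with 0.83 and 0.96, and without D3 replicate 11 the brighter one had 0.97 at D3.

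Among the cysteine proteases that cut inside protein chains, Ctsb and Ctsl had the smallest fold changes of the 9 genes at D3. Cathepsin B, a bulk lysosomal protease that also acts as a carboxypeptidase, ranged from 94.6 to 96.7 in Control rats, from 122.8 to 147.3 in D3 rats, from 100.5 to 157.9 in the 4 D7 rats with a usable spot, and from 98.7 to 117.8 in Chronic rats. D7 replicate 34 was left out of the Ctsb fit because its spot was contaminated. The ranges did not overlap Control at any time, and the log2 fold changes of the 3 groups were 0.46 ± 0.13, 0.49 ± 0.14 and 0.21 ± 0.13 (adjusted p = 0.0167, 0.0209 and 0.318). Cathepsin L, another general endopeptidase, ranged from 3.74 to 4.14 in Control rats, from 4.75 to 6.75 in D3 rats, from 4.46 to 6.21 in D7 rats and from 4.88 to 5.89 in Chronic rats. Ctsl did not overlap Control either, and its log2 fold change was 0.55 ± 0.12, 0.39 ± 0.12 and 0.44 ± 0.12 (adjusted p = 0.00379, 0.0355 and 0.0237). Without D7 replicate 33 neither Ctsb nor Ctsl kept an adjusted p under 0.05 at D7.

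**Figure D2:**
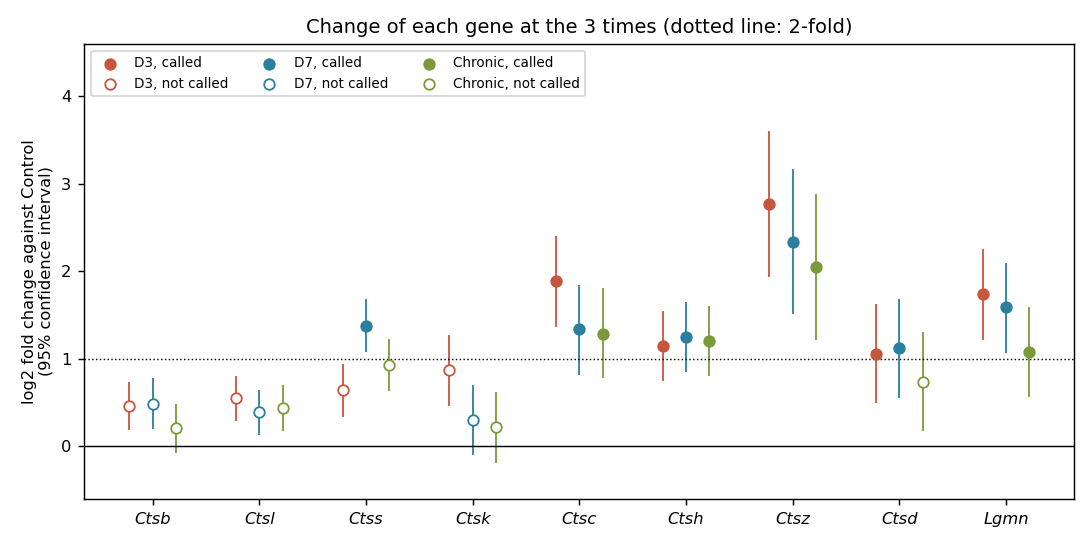
Log2 fold change against Control of each gene at D3, D7 and Chronic, with 95% confidence intervals from the fit; filled points were called and open points were not, and the dotted line marks 2-fold. Ctsz is highest at each time, and Ctss has its highest point at D7 and Ctsk at D3.

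Cathepsin S and cathepsin K had the clearest differences between times. The genes lie next to each other on rat chromosome 2. Cathepsin S, which keeps its activity at neutral pH, had Control values of 16.4, 18 and 19.8. It was 27.9, 31.1, 25.3, 26.5 and 30.1 at D3, then 48.8, 42.6, 58.2, 41.4 and 44.4 at D7, and 36.4, 36.3, 34.6, 24.8 and 42.1 in Chronic. The D7 rats lay above all D3 rats, and the D3 rats above all Control rats. Its log2 fold changes in the D3, D7 and Chronic groups were 0.64 ± 0.14, 1.38 ± 0.14 and 0.93 ± 0.14 (adjusted p = 0.00358, 1.26e-05 and 0.00072). In Chronic, Ctss reached the 2-fold limit without Control replicate 47 and a log2 fold change of 1.05 without Chronic replicate 44, both called.

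Cathepsin K, a collagenase best known from osteoclasts, had Control values of 2.41, 2.72 and 3.03. It was 6.27, 4.44, 4.94, 4.52 and 4.77 at D3, then 4.98, 3.17, 3.07, 3.38 and 2.53 at D7. The Chronic rats read 4.56, 2.9, 2.46, 2.91 and 3.27. The 5 D3 rats lay above Control, whereas 1 rat at D7 and 3 in Chronic fell within the Control range. Against Control the D3 change was 0.87 ± 0.19 on the log2 scale (adjusted p = 0.0035), while the D7 and Chronic changes were 0.30 ± 0.19 (0.303) and 0.22 ± 0.19 (0.503).

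The pilocarpine groups were also compared with each other. None of the 9 genes was called between times, where 0.527% of all genes were called between D7 and D3, 1.12% between Chronic and D3 and 0.0405% between Chronic and D7. At any size, Ctss was higher at D7 than at D3 by 0.73 ± 0.12 (adjusted p = 0.00923), where 0.219% of all genes were higher at an adjusted p under 0.05. Ctsk was lower in Chronic than at D3 by -0.65 ± 0.17 (adjusted p = 0.04), where 3.15% of all genes were lower by that rule. For Ctss 5 of 5 D7 rats lay above every D3 rat, and for Ctsk 4 of 5 Chronic rats lay below every D3 rat. How often all genes separate in this way was not counted. The Ctss difference kept an adjusted p under 0.05 with each of the 18 arrays left out in turn, at 0.00249 to 0.0315. The Ctsk difference did so for 9 of the 18 arrays, and its highest adjusted p was 0.126, without D3 replicate 12. Its adjusted p also rose to 0.05 or more when any of the other 4 D3 arrays, Chronic replicates 42, 43 or 44 or Control replicate 36 was left out. None of the 9 genes differed between Chronic and D7, as for all but 0.219% of genes. The 95% intervals there reached from -0.70 to -0.18 for Ctss, at an adjusted p of 0.186, so a missed threshold does not show equal levels.

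Ctss and Ctsk were set side by side after their values had been seen. The change of Ctss minus the change of Ctsk against Control, on the log2 scale, ran from -0.58 to 0.08 over the 5 D3 rats, from 0.56 to 1.52 over the 5 D7 rats and from 0.27 to 1.09 over the 5 Chronic rats. The D3 rats did not overlap the later groups, and no test was made of this chosen pair.

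**Figure D3:**
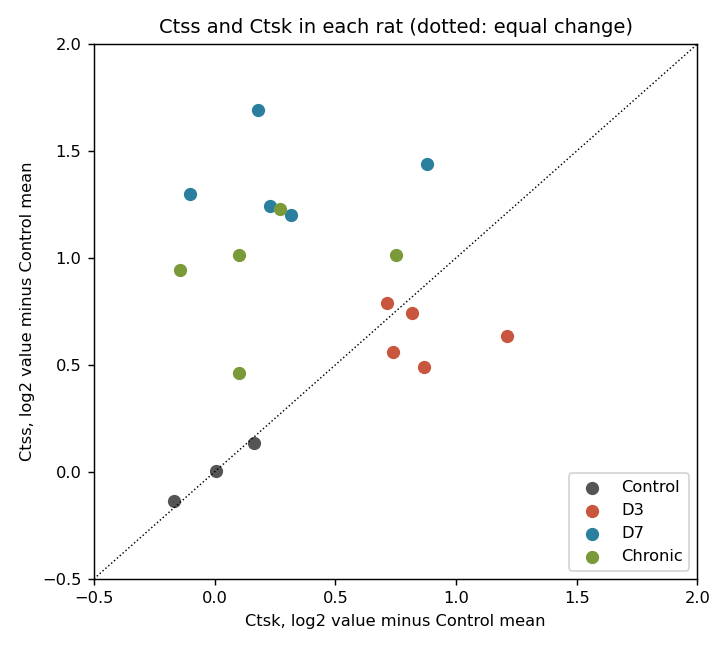
Log2 value of Ctss against that of Ctsk on each of 18 arrays, each relative to the mean of the 3 Control arrays, with a dotted line of equal change. Of the 5 D3 points 4 lie below the line and 1 is 0.08 above it, and every D7 and Chronic point lies above it.

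Ordered by group mean, Ctsc, Ctsz, Lgmn and Ctsk ran D3, D7, Chronic, Control from the highest down. Ctsb and Ctsd ran D7, D3, Chronic, Control, Ctss and Ctsh ran D7, Chronic, D3, Control, and Ctsl ran D3, Chronic, D7, Control. No neighbouring pair of pilocarpine groups in these orders differed at an adjusted p under 0.05.

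Some rats stood apart from their group in most of the 9 genes, and others did not. Averaged over the 9 genes, the log2 value relative to Control was 1.70 in D7 replicate 33 and 0.69 in D7 replicate 32, the highest and lowest of their group. D7 replicate 32 was below the group mean in 9 of 9 genes. In Chronic, replicate 45 had 1.16, above the group mean in 9 of 9 genes, and replicate 44 had 0.62, above it in 0 of 9. At D3 the 5 rats lay between 1.10 and 1.34, a narrower range than at D7 or in Chronic. D7 replicates 31, 34 and 35 had 3 of 9, 2 of 8 and 5 of 9 genes above the group mean, and Ctsk was highest at D7 in replicate 31 and below the group mean in replicate 33. The genes share an array, so they are not independent of each other.

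**Figure D4:**
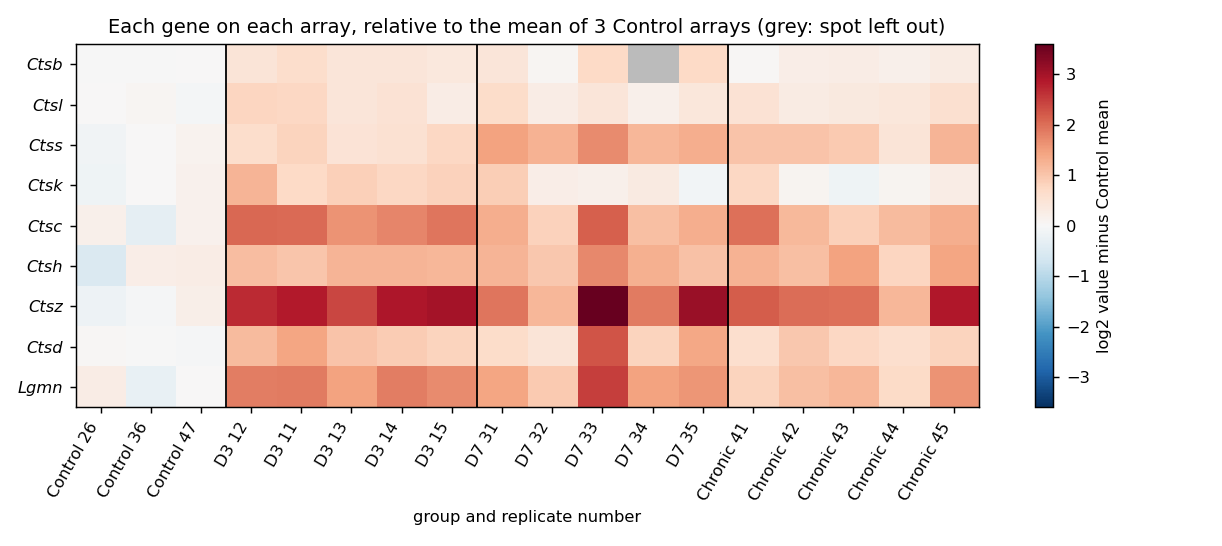
Log2 value of each gene (vertical) on each array (horizontal) minus the mean of the 3 Control arrays, from blue for lower to red for higher; grey is the contaminated Ctsb spot of D7 replicate 34. D7 replicate 33 is the darkest column, at a mean of 1.70, and Ctsk is pale there.

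Markers of microglia and macrophages moved with these arrays. Of 15 listed markers 13 were measured, and 8, 10 and 8 were called higher at D3, D7 and Chronic, with 9 at D7 without replicate 33. Their summed intensity ranged from 89.3 to 101.5 in Control rats, from 267.9 to 333.5 in D3 rats, from 194.3 to 528.5 in D7 rats and from 180.5 to 324.7 in Chronic rats. The sum was 528.5 in D7 replicate 33 and 194.3 in D7 replicate 32, and 324.7 in Chronic replicate 45 and 180.5 in Chronic replicate 44, the same rats that were highest and lowest in the mean of the 9 proteases. The markers Trem2 and Fcer1g were flagged low on all arrays of every group and Cx3cr1 on all in Control. Of 11 markers of blood monocytes and neutrophils 10 were measured, 3, 4 and 2 were called higher (3 at D7 without replicate 33), and the sum ranged from 4.53 to 5.93 in Control rats, from 31.7 to 41.5 in D3 rats, from 8.6 to 83.1 in D7 rats and from 7.72 to 25.9 in Chronic rats. The highest of these, 83.1, was D7 replicate 31 and not replicate 33, which had 19.1. Mpo, which defines granulocytes, was flagged low on all arrays of Control, D3 and Chronic.

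Neurons were checked as the labelled tissue's own cells. Of 12 neuronal markers 8 were measured, none was called higher, 2, 0 and 1 were called lower at D3, D7 and Chronic, and their sum ranged from 139.4 to 149.3 in Control rats, from 77.1 to 93.4 in D3 rats, from 64.2 to 107.1 in D7 rats and from 75.5 to 110.6 in Chronic rats. Among 8 of 9 astrocyte markers measured, 2 were called higher at each time, with sums of 308.5 to 330.8 in Control rats, 459.1 to 481.8 in D3 rats, 408.4 to 459.2 in D7 rats and 284.4 to 407.7 in Chronic rats, the last overlapping Control. Of 7 T and B cell markers 1 was called higher at each time, of 7 endothelial and 8 oligodendrocyte markers none was called, and of 2 red cell markers 1 was called lower at D3 and D7. Of 8 choroid plexus markers 1, Ttr, was called lower at D7 (-4.13, adjusted p = 0.0451) and none without D7 replicate 33, and their sum ranged from 13.1 to 262.2 over the 3 Control rats alone. The part of any of these cell types in the protease values was not tested.

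Genes beside the 9 in the lysosome did not all move with them. Of 13 further cathepsins listed, 6 were measured. Ctse, an aspartic protease of immune and epithelial cells, was higher at D3, D7 and Chronic by 1.14, 1.88 and 1.62 (adjusted p = 0.0123, 0.00076 and 0.00292), and Ctsm, of a rodent placental cluster, was lower at D3 by -1.14 (0.0105). The median of the 6 was -0.29, 0.33 and -0.24. Among 8 of 13 protease inhibitors measured, 2, 3 and 2 were called higher and none lower, with 2 at D7 without replicate 33. Timp1, an inhibitor of matrix metalloproteases, changed by 4.42, 2.74 and 2.98, and A2m, a broad protease trap of plasma, by 2.82, 1.97 and 2.04. Cst3, the secreted inhibitor of cysteine cathepsins, was 1.01 higher at D7 (adjusted p = 0.00102), with 0.23 at D3 (0.361) and 0.43 in Chronic (0.0785).

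Other proteins of the lysosomal lumen, mostly hydrolases, were higher in part. Of 40 listed, 30 were measured, and 8, 8 and 3 were called higher and none lower, with medians of 0.60, 0.68 and 0.38. Ifi30, Npc2 and Grn, which are not hydrolases, were called at all 3 times and make up the 3 Chronic calls. The hydrolases called were Gusb, Fuca1, Galc, Acp5 and Lyz2 at D3 and Glb1, Gusb, Man2b1, Galc and Lyz2 at D7. Without D7 replicate 33, 5 were called at D7. Lysozyme (Lyz2) was higher by 2.88 and 1.51 at D3 and D7, with 0.92 in Chronic at an adjusted p of 0.077. Lyz2 was lower at D7 and in Chronic than at D3, by -1.36 (adjusted p = 0.0302) and -1.96 (0.000807). The thiol reductase Ifi30 was higher by 2.53, 2.23 and 2.11. The cholesterol carrier Npc2 changed by 1.36, 1.74 and 1.66. Acp5, the tartrate-resistant phosphatase known from osteoclasts and macrophages, was higher at D3 by 1.59 (adjusted p = 0.000524), with 0.57 (0.152) and 0.24 (0.605) at the later times, and it was lower at D7 and in Chronic than at D3 by -1.01 (0.0451) and -1.35 (0.00302).

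Lysosomal membrane proteins were 14 of 19 measured, with 5, 5 and 4 called higher, none lower, and 3 called at D7 without replicate 33. Cd68, a glycoprotein of phagocytes, changed by 3.50, 3.40 and 3.16, and Gpnmb by 3.44, 2.89 and 2.98. Laptm5, a membrane protein of blood cell lysosomes, changed by 1.66, 1.99 and 1.76. Scarb2, the receptor that carries glucocerebrosidase to lysosomes, changed by 1.50 at D3, where it was called, and 0.97 and 0.74 later (adjusted p = 0.00459 and 0.0227).

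Of the vacuolar ATPase, the proton pump that acidifies the lysosome, 19 of 19 listed genes were measured, and none of these 19 listed genes was called at 2-fold. The list lacks Tcirg1, another subunit, which was higher by 1.06, 1.01 and 0.76 (adjusted p = 0.00328, 0.00714 and 0.0335), called at D3 and D7. At any size, 10, 6 and 6 of the 19 were lower in D3, D7 and Chronic, and 1, 1 and 0 were higher. Over all genes 16.5%, 15.5% and 12.7% were lower. Without replicate 33, 4 of the 19 were lower at D7. The medians were -0.34, -0.37 and -0.28, beside -0.10, -0.12 and -0.12 over all genes. The lower counts rest on the scaling. The distance of the medians from those of all genes shrank with quantile normalization but not with scaling to the 75th percentile. With quantile normalization 1, 0 and 0 subunits were lower. The medians were then -0.06, -0.10 and -0.09, beside -0.00, -0.03 and -0.02 over all genes. With scaling to the 75th percentile 7, 3 and 5 were lower. There the medians were -0.29, -0.26 and -0.17, beside -0.05, -0.01 and -0.01 over all genes. The 9 proteases had medians of 1.13, 1.32 and 1.13 with quantile normalization and 1.12, 1.36 and 1.04 with the 75th percentile.

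Genes that sort lysosomal enzymes or switch on their transcription were 12 of 15 measured, and none was called. At any size 1 was higher and 3, 4 and 4 were lower, with 3 lower at D7 without replicate 33. Over all genes 16.5%, 15.5% and 12.7% were lower. The medians were -0.07, -0.14 and -0.02, beside -0.10, -0.12 and -0.12 over all genes. Among the transcription factors, Mitf was the higher gene, by 0.76, 0.80 and 0.81 (adjusted p = 0.0134, 0.0136 and 0.0147, limma). Tfec was lower by -0.69, -0.68 and -0.44 (0.00023, 0.0006 and 0.0117). Tfeb was lower at D7 only, by -0.31 (0.0289), and Tfe3 at no time. Spi1, the gene of PU.1, was listed but not measured. The part of these factors in the protease values was not tested. The lower counts of this list too changed with the scaling, to 2, 1 and 0 by quantile normalization and 3, 2 and 0 by the 75th percentile. The count of higher genes stayed at 1 with both.

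MHC class II genes, whose invariant chain is a substrate of cathepsin S, were 8 of 8 measured, with 5, 4 and 4 called higher and medians of 1.82, 1.37 and 1.58. Without D7 replicate 33, 3 were called at D7. The invariant chain Cd74 changed by 3.05, 2.38 and 3.59, the class II chains RT1-Da by 3.39, 2.22 and 3.52, and RT1-Ba by 2.54, 1.72 and 3.01. RT1-DMb changed by 1.80, 1.79 and 1.27. No difference between Chronic and D7 passed the test for Cd74, RT1-Da and RT1-Ba (adjusted p = 0.32, 0.335 and 0.327). Ciita, the transactivator of class II genes, had Control spots that were all flagged low, and was at least 2.6-fold higher at D3 (adjusted p = 0.0278).

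**Figure D5:**
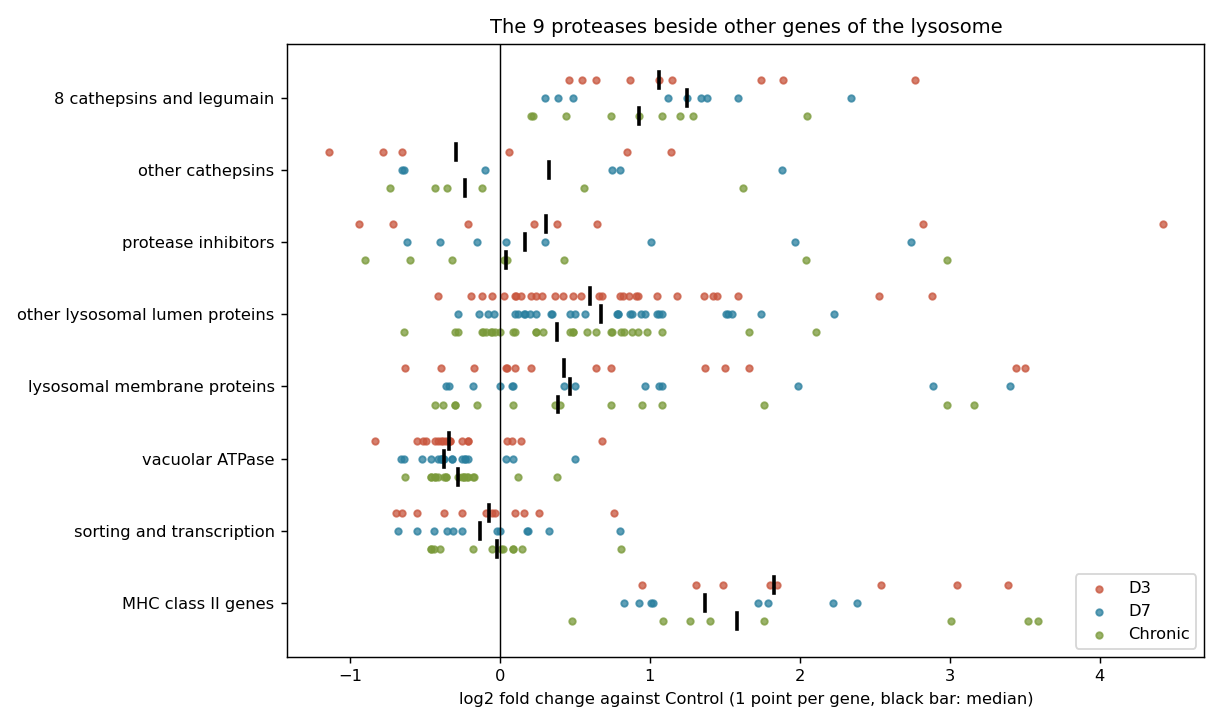
Log2 fold change against Control of each measured gene of the 9 proteases and of 7 lists of lysosomal and related genes, at D3, D7 and Chronic, with the median as a black bar. The proteases lie between 0.21 and 2.77. The 19 listed vacuolar ATPase genes have medians below 0, as do all genes (-0.10, -0.12 and -0.12).

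For each protease the genes with the nearest profile were taken, up to 3 of them, by the root mean square difference of log2 values relative to Control over the 15 pilocarpine arrays. The nearest to Ctsz were Ripk3 (0.25), Ifi30 (0.29) and Arl11 (0.36), and the nearest to Lgmn were Arhgdib (0.20), Hlx (0.22) and RT1-DMb (0.23). Ctsd was nearest to Mfng (0.18), Tcirg1 (0.21), a subunit of the proton pump of osteoclasts and immune cells, and the lysosomal galactosidase Glb1 (0.22). Near Ctss were Srd5a2 (0.22) and the lysosomal membrane protein Lamp2 (0.24), near Ctsh were Col16a1 (0.17) and Psd4 (0.25), and near Ctsc were Dnajc22 (0.27) and Ugt1a6 (0.29). Ctsk was nearest to Vwf (0.26), Cav1 (0.26) and Lamc1 (0.27). Ctsb had Wdfy1 (0.12), Gas5 (0.13) and Sdf4 (0.14), and Ctsl had Actl6a (0.16), Crybg3 (0.16) and Rela (0.17). Genes of small change are near each other by this measure, and the Control spots of Dnajc22 were all flagged low.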

How the data were processed

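The authors scanned the arrays with GenePix, subtracted the background and normalized with CodeLink Expression Analysis. The deposited normalized intensity is the background-subtracted spot intensity divided by 1 constant per array. The value table of the series holds the same numbers per the file headers, as checked over all 18 arrays. Spots flagged G (good) or L (low) were kept, others, 0.699% of spots, set to missing. Here a floor was set at percentile 1 of an array's positive values before taking log2. Probes with at least 3 values per pilocarpine group and 2 in Control were tested, 33800 in all, by limma 3.58.1 (R 4.3.3), fitting 1 model to all 4 groups and letting the prior follow intensity. The Benjamini-Hochberg adjustment covered every tested probe. The script was tested on simulated data. Errors are standard errors of the fit. Of the gene probes 16740 were named by the platform annotation and 205 by RefSeq accession, 165 name several genes and 16739 none. A bound takes each Control value at no less than the lowest intensity flagged G on its array.

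The labels number the samples but name no animals, and each was taken as a separate rat from the study's methods. If that were wrong, p-values would measure the spread between samples only. The study gives n = 5 per group with controls of each age, and 1 control array per time was used here. Replicate numbers differ between groups and pair nothing.

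The members and lists were chosen with earlier results of these data known. All 9 genes are named, and from each list of related genes up to 4 called genes with the largest change. Further called genes of the lumen and MHC class II lists are named as well, and so is Tcirg1, which is outside the lists. The transcription factors of the sorting list are named although none was called, and so are the blood monocyte and neutrophil markers. Protein and probe sequences were not used here. Some genes of near profile are not reported here. Alternatives were another scaling, floor, flag filter, probe choice, Control choice, prior and test, and each array left out.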

Additional observations from a re-analysis of the deposited data

Results flagged for a closer look

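The dimmer probe of Ctsd read a log2 intensity of 3.90 in D3 replicate 11, above the other 4 D3 rats at 3.48 to 3.59, a gap of 0.737 of the range of the group. Of 33 groups examined 1 held such a value, and chance gives about 5% of groups. The brighter Ctsd probe also had its highest D3 value in that rat.

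Effects against the shared Control differed between times for a pair of genes. Ctss was higher at D7 than at D3 by 0.73 on the log2 scale (adjusted p = 0.00923, limma), and Ctsk was lower in Chronic than at D3 by -0.65 (adjusted p = 0.04). The Ctss difference kept an adjusted p under 0.05 with each of 18 arrays left out and in 8 of 9 other settings. The Ctsk difference did so for 9 of the 18 arrays and in 5 of the 9 settings.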

How the results depend on the processing

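No called difference of the 9 genes reversed under any alternative run. Called genes at D3, D7 and Chronic numbered 4 to 5, 5 to 6 and 3 to 5 over the arrays left out in turn, and genes higher at any size 8 to 9, 6 to 8 and 4 to 7. Leaving out arrays gave 0 to 1 genes lower at D7 than at D3 and 0 to 2 lower in Chronic than at D3. Without the fold limit, 9 genes were higher at D3, 1 was higher at D7 than at D3 and 1 was lower in Chronic than at D3.

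With each time compared with its own saline rat alone, a lone array assumed to vary like the other groups, 4, 4 and 0 genes were called at D3, D7 and Chronic, and genes higher at any size numbered the same. With only the 2 groups compared, 5 were higher at D7 and 2 lower in Chronic than at D3. The Student test of the study's methods on the same values, after Benjamini-Hochberg adjustment, called 5, 1 and 1 genes at D3, D7 and Chronic, with 1 higher at any size at D7 and 0 between times. At its unadjusted threshold it called 5, 6 and 4. The share of all genes called is not set beside these Student counts. Nor is it set beside the ranges over arrays left out, except where Results gives it. Those counts therefore describe how far the calls depend on the processing. They do not show how far the proteases stand out from all genes under each rule. The Ctsk difference between Chronic and D3 gave 0 genes with quantile normalization, with scaling to the 75th percentile and without the intensity trend, and its adjusted p was highest in the Student test (0.117). The Ctss difference between D7 and D3 reached 0.0569 in the Student test and was under 0.05 in the other 8 such alternatives. Ctss in Chronic was called with quantile normalization (1.13) and the 75th percentile (1.04). The causes were not tested.

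Over all genes at any size, 1459 were higher and 2036 lower at D3, and 1697 and 1061 with quantile normalization. At D7 these were 991 and 1908, against 1024 and 607, and in Chronic 774 and 1567, against 794 and 508. Scaling to the 75th percentile gave 1671 and 1701, 1214 and 961, and 958 and 817.

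Another background correction could not be run because the deposited intensities are already background-subtracted, and no slide or scan entry was found in the files to use as a block. No paired analysis was possible because no replicate number occurs in more than 1 group. Values near background, as for the second Ctsc probe, limit what can be said.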
